A study of Mus musculus with 10 samples.

Results

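Branched-chain amino acid catabolism was described through 10 genes: Bcat1, Bcat2, Bckdha, Bckdhb, Dbt, Bckdk, Ppm1k, Ivd, Mccc1 and Hibadh. They were found by symbol in a gene-level count table, in which all 10 were present among 55385 genes. Left ventricular RNA of mice, given as C56Bl6 in the labels, was sequenced in 10 libraries. The Control group (5 libraries) received a standard diet. The HFpEF group (5 libraries) was fed for 6 weeks on high fat together with L-NAME, a combination used to model heart failure with preserved ejection fraction. L-NAME inhibits nitric oxide synthase. Diet and inhibitor were given together, so their separate contributions cannot be told apart. The labels give neither age nor sex. Nothing in them ties a library to its own animal, so p-values cover only the variation among these libraries, which may be technical.

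Leucine, isoleucine and valine share the opening steps of their breakdown. A transaminase (BCAT) moves the amino group to alpha-ketoglutarate, and the resulting branched-chain keto acids are decarboxylated irreversibly in mitochondria by the branched-chain alpha-keto acid dehydrogenase complex (BCKDH). A kinase switches the complex off by phosphorylating its E1 alpha subunit, and a phosphatase switches it back on. Downstream of BCKDH the routes part: leucine carbon leaves as acetyl-CoA and acetoacetate, valine carbon as propionyl-CoA, and isoleucine carbon as acetyl-CoA and propionyl-CoA. In heart the pathway is known for its link to mTOR signalling and for the build-up of branched-chain keto acids in several models of heart failure.

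None of the 10 genes was called different between HFpEF and Control. A call required an adjusted p below 0.05 by the quasi-likelihood test of edgeR (Benjamini-Hochberg, 18491 genes tested), and all 10 members passed the filter on low counts. The 2 genes nearest to a call encode partner chains of the same BCKDH component and differed in opposite directions: Bckdha, for E1 alpha, was 1.16-fold higher in HFpEF (adjusted p = 0.0636) and Bckdhb, for E1 beta, was 0.85 of the Control level (adjusted p = 0.0790). The other 8 genes lay between -0.12 and 0.12 in log2 fold change (HFpEF against Control). Among all genes tested, 5.33% were called. An unadjusted p below 0.05 was found for 2 of the 10 members, against 20.5% of the genes tested, a share near the background. The groups overlapped for each of the 10 members, while they did not overlap for 6.81% of the genes tested. The median log2 fold change was -0.03 over the members and -0.01 over all genes, and the median absolute value was 0.10 and 0.11. DESeq2 called 1 member, Bckdha (adjusted p = 0.0221, against 7.76% of genes called by that tool), and limma voom called 0 (against 4.91%).

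Library totals ran from 31286355 to 46108710 counts, with Control 4 and Control 5 deepest. The 6 cardiomyocyte markers were abundant in every library, with a summed level of 23443 to 24987 CPM (counts per 1e6 counts of the library, with totals scaled by TMM factors) in Control and 22474 to 24176 in HFpEF; 1 of the 6 was called, lower. Summed adipocyte markers were higher in HFpEF (11.2 to 14.1 CPM) than in Control (5.50 to 9.42 CPM). Cidea made up most of that sum, Ucp1 was at 0 in all libraries, and no other marker of that list exceeded 0.374 CPM. Of the 7 adipocyte markers 1 was tested, and it was called higher. Summed atrial markers were lower in HFpEF (15.3 to 29.3 CPM) than in Control (37.2 to 58.3 CPM). Of their 2 tested genes 1 was called, lower. That gene, Nppa, made up most of the sum, with means of 49.3 CPM in Control and 21.6 CPM in HFpEF. The other tested gene, Myl4, averaged 0.769 CPM in Control against 0.722 CPM in HFpEF (edgeR adjusted p = 0.853). Sln and Myl7, the atrial markers not tested, did not exceed 0.0973 and 0.314 CPM in any library. Summed macrophage markers ran from 36.2 to 48.1 CPM in HFpEF against 43.0 to 68.9 CPM in Control, with 0 of 4 called. The part of these marker differences in the values below was not tested. In bulk tissue, fewer cells of a type and less RNA per cell cannot be told apart.

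**Figure D1:**
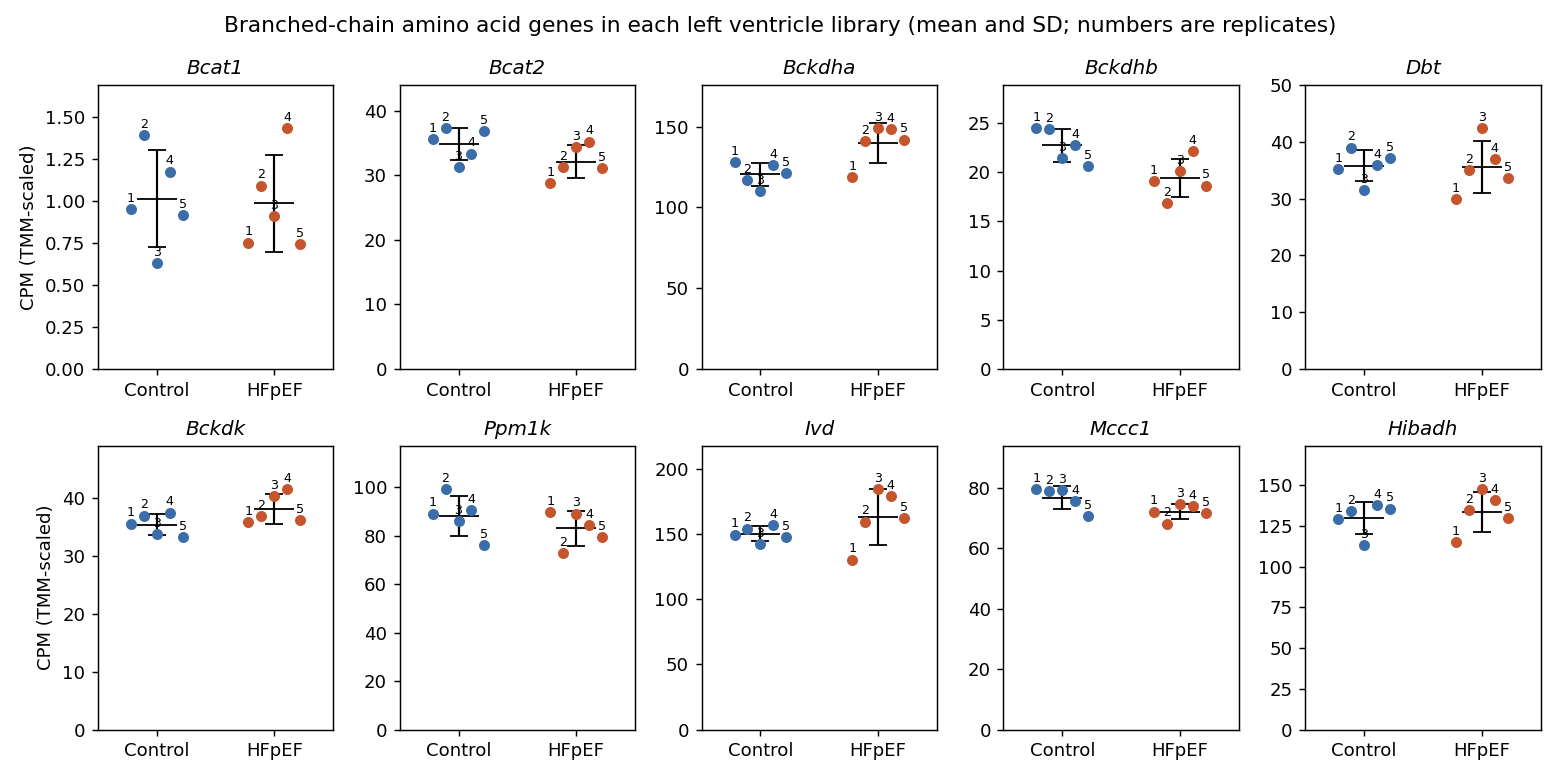
Expression of the 10 genes in each library, in CPM on an axis starting at 0, for Control (blue) and HFpEF (orange); points are libraries marked with their replicate number, and bars are the mean and SD (n = 5). Bckdha and Bckdhb show the widest separation and the groups overlap in every panel; HFpEF 1 is the lowest HFpEF library in 6 of the 10 panels.

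Of the transaminases, Bcat2 was the one expressed at an appreciable level. Bcat2 (ENSMUSG00000030826.19; protein-coding, mm10 chromosome 7, 45570153 to 45589711, plus strand), the mitochondrial enzyme that predominates in muscle and heart, stood at 35.6, 37.3, 31.2, 33.4 and 36.8 CPM in Control 1 to 5. In HFpEF 1 to 5 it stood at 28.8, 31.3, 34.4, 35.2 and 31.2 CPM. HFpEF 1 lay below the lowest Control library, HFpEF 5 just below it, and the other 3 within the Control range. The means were 34.9 ± 2.53 and 32.2 ± 2.63 CPM (SD, n = 5), and the log2 fold change was -0.12 ± 0.06 (SE; 95% interval -0.25 to 0.02; adjusted p = 0.319). An annotated antisense gene, 0610005C13Rik, covers 15.9% of the exonic bases of Bcat2, with a level of 0.705 CPM in Control against 0.482 CPM in HFpEF.

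Bcat1 (ENSMUSG00000030268.17; protein-coding, chromosome 6, 144993835 to 145076184, minus strand), the cytosolic transaminase known from brain and proliferating cells, was barely detected, with 20 to 52 counts per library. Its Control libraries spanned 0.629 to 1.39 CPM and its HFpEF libraries 0.742 to 1.43 CPM, with means of 1.01 ± 0.287 and 0.985 ± 0.288 CPM (SD, n = 5). The HFpEF values lay almost wholly inside the Control range. Its log2 fold change of -0.05 ± 0.23 (SE) had the widest 95% interval of the members, -0.54 to 0.44 (adjusted p = 0.936), which spans folds from 0.688 to 1.36.

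BCKDH is built from a decarboxylase (E1, a tetramer of alpha and beta chains), an acyltransferase core (E2, encoded by Dbt) and a dehydrogenase (E3, encoded by Dld) that it shares with other keto acid dehydrogenases. Bckdha (ENSMUSG00000060376.7; protein-coding, chromosome 7, 25629946 to 25658981, minus strand) encodes E1 alpha, the subunit that the kinase phosphorylates. It stood at 127.9, 117.0, 110.1, 126.1 and 121.4 CPM in Control 1 to 5 and at 118.9, 141.1, 149.0, 148.5 and 142.0 CPM in HFpEF 1 to 5. Of the 5 HFpEF libraries 4 lay above every Control library, and HFpEF 1 lay inside the Control range. The means were 120.5 ± 7.21 and 139.9 ± 12.3 CPM, respectively (SD, n = 5). The log2 fold change was 0.22 ± 0.06 (SE; 95% interval 0.08 to 0.35), with an unadjusted p of 0.00401 and an adjusted p of 0.0636 in edgeR.

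Whether Bckdha was called turned on a single library and on the filter. Without HFpEF 1 its log2 fold change was 0.27 ± 0.05 (SE) and it was called (edgeR adjusted p = 0.00729), while in the other 9 fits that left out 1 library the adjusted p ran from 0.0687 to 0.153. With all libraries and no filter on low counts it was also called (edgeR adjusted p = 0.0317). HFpEF 1 had a total of 31286355 counts, the smallest of the 10, and it was the lowest HFpEF library for 6 of the 10 members. HFpEF 4, with a similar total of 31743189 counts, was the highest HFpEF library for 4 of the 10 members. HFpEF 1 also differed more widely from the rest of its group. Over genes with enough counts, the chi-square per gene between a pair of libraries measures how far their counts differ relative to sampling noise. It was 9.24 to 16.0 between HFpEF 1 and the other HFpEF libraries, against 4.61 to 7.55 among those others. Mitochondrial transcripts made up 36.2% of counts in HFpEF 1 and 37.4% to 38.5% in the other HFpEF libraries. Whether depth or this wider difference played a part was not tested. Exons of B3gnt8, a glycosyltransferase gene on the opposite strand, overlap 61.7% of the exonic bases of Bckdha. B3gnt8 was counted at 4.53 CPM in Control against 4.98 CPM in HFpEF (log2 fold change 0.14, adjusted p = 0.516). The labels do not say if the kit marks strand, so reads from the overlap cannot be told apart.

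Bckdhb (ENSMUSG00000032263.14; protein-coding, chromosome 9, 83925145 to 84124240, plus strand) encodes the partner chain E1 beta. It stood at 24.5, 24.3, 21.4, 22.7 and 20.6 CPM in Control 1 to 5 and at 19.1, 16.9, 20.1, 22.1 and 18.6 CPM in HFpEF 1 to 5. Of the HFpEF libraries 4 lay below every Control library, and HFpEF 4 lay inside the Control range. The means were 22.7 ± 1.71 and 19.4 ± 1.94 CPM (SD, n = 5), and the log2 fold change was -0.23 ± 0.07 (SE; 95% interval -0.38 to -0.08). The unadjusted p was 0.00605 and the adjusted p 0.0790 in edgeR. Without HFpEF 4 the log2 fold change was -0.28 ± 0.07 and the gene was called (edgeR adjusted p = 0.0418). In the other 9 fits without 1 library the adjusted p ran from 0.0572 to 0.187.

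**Figure D2:**
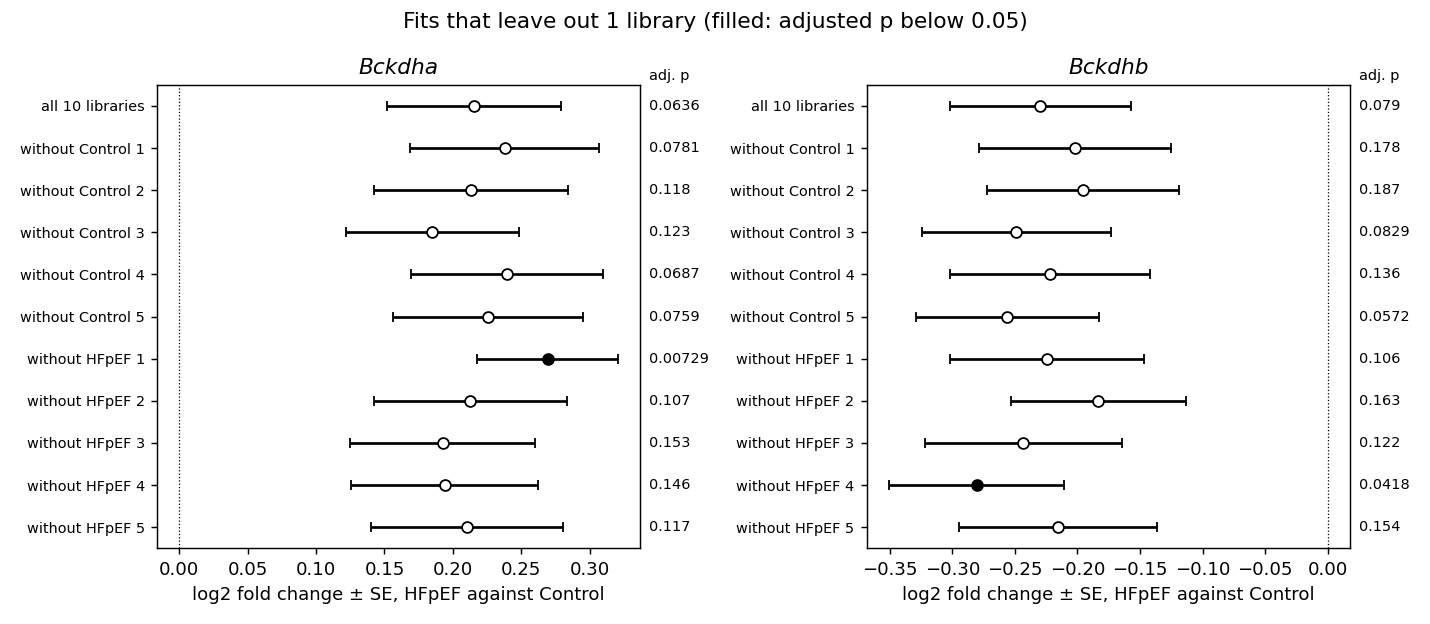
Log2 fold change (HFpEF against Control, points; bars are SE) of Bckdha and Bckdhb with all 10 libraries and with each library left out, with edgeR's adjusted p at the right. Each gene keeps its direction in the 10 fits, and each is called in 1 of them, Bckdha without HFpEF 1 and Bckdhb without HFpEF 4.

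Dbt (ENSMUSG00000000340.10; protein-coding, chromosome 3, 116513070 to 116549981, plus strand), the E2 core, did not share either difference. Its Control libraries spanned 31.55 to 39.0 CPM and its HFpEF libraries 29.9 to 42.4 CPM, with means of 35.8 ± 2.77 and 35.6 ± 4.61 CPM (SD, n = 5). Every Control library fell within the range of the HFpEF libraries. The log2 fold change was -0.01 ± 0.08 (SE; 95% interval -0.19 to 0.16; adjusted p = 0.961), a value whose sign depended on which library was left out. Dld, the shared E3 subunit, averaged 139.2 ± 10.3 CPM in Control against 144.5 ± 12.1 CPM in HFpEF (SD, n = 5), a log2 fold change of 0.05 ± 0.06 (SE; adjusted p = 0.700).

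The ratio of Bckdha to Bckdhb counts within a library does not depend on how libraries are scaled. This ratio, chosen after the values of both genes had been seen, was 5.23, 4.81, 5.14, 5.55 and 5.88 in Control 1 to 5. In HFpEF 1 to 5 it was 6.23, 8.37, 7.41, 6.72 and 7.62. All HFpEF libraries lay above all Control libraries, HFpEF 1 and HFpEF 4 included, and the mean was 1.37 times that of Control (5.32 ± 0.409 against 7.27 ± 0.829; SD, n = 5). Because the pair was picked for its difference, no test is given. Of the 45 ratios that the 10 members allow, 6 (13.3%) did not overlap between the groups. The share was 6.18% of all pairs of tested genes with a count in every library, a background not matched for expression level. The 45 ratios share genes and are not independent: 4 of the 6 involve Bckdha or Bckdhb. The others were Bcat2 to Bckdk, lower in HFpEF, and Bckdk to Mccc1, higher in HFpEF.

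**Figure D3:**
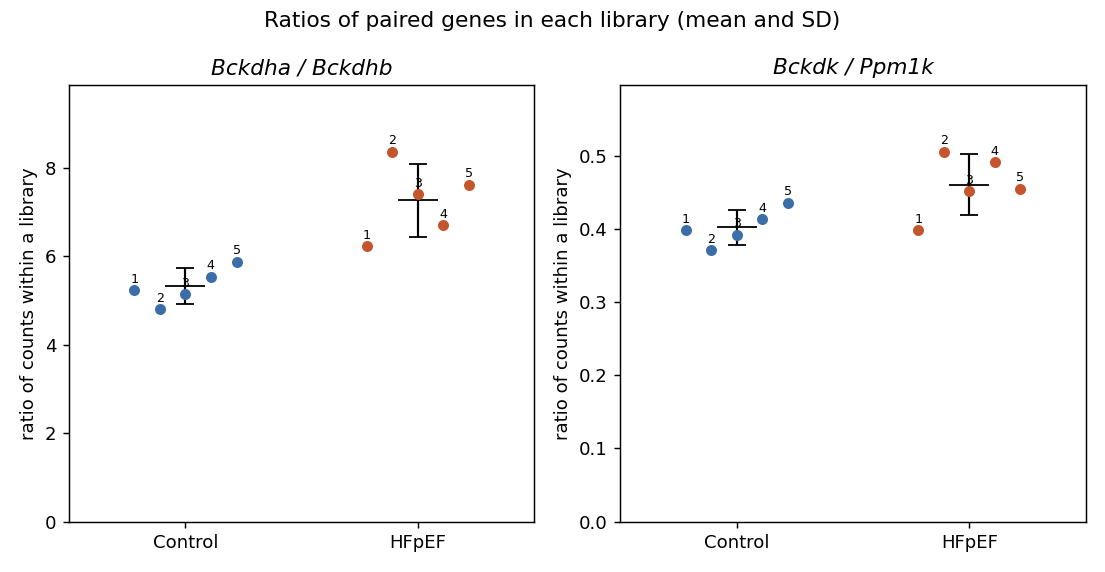
Ratio of counts within each library (axes from 0) for the E1 chains, Bckdha to Bckdhb, and for the kinase and phosphatase, Bckdk to Ppm1k; points are libraries marked with their replicate number, bars are the mean and SD (n = 5). The E1 ratio spans 4.81 to 5.88 in Control libraries and 6.23 to 8.37 in HFpEF libraries, whereas the Bckdk to Ppm1k ratios overlap through HFpEF 1.

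The kinase and the phosphatase that set BCKDH activity were not called. Bckdk (ENSMUSG00000030802.14; protein-coding, chromosome 7, 127904082 to 127910221, plus strand), the inactivating kinase, stood at 35.5, 36.9, 33.8, 37.4 and 33.2 CPM in Control 1 to 5 and at 35.7, 36.8, 40.3, 41.5 and 36.1 CPM in HFpEF 1 to 5. HFpEF 3 and HFpEF 4 exceeded every Control library and the other 3 did not. The means were 35.4 ± 1.87 and 38.1 ± 2.62 CPM (SD, n = 5), with a log2 fold change of 0.11 ± 0.06 (SE; 95% interval -0.01 to 0.22; adjusted p = 0.291).

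Ppm1k (ENSMUSG00000037826.5; protein-coding, chromosome 6, 57506502 to 57535468, minus strand), the mitochondrial phosphatase that reactivates BCKDH, stood at 89.2, 99.4, 86.1, 90.6 and 76.2 CPM in Control 1 to 5. In HFpEF 1 to 5 it stood at 89.8, 72.8, 89.2, 84.5 and 79.4 CPM. HFpEF 2 lay below every Control library and the other 4 lay within the Control range. The means were 88.3 ± 8.38 and 83.1 ± 7.13 CPM (SD, n = 5), with a log2 fold change of -0.09 ± 0.07 (SE; 95% interval -0.24 to 0.07; adjusted p = 0.543). The Bckdk to Ppm1k ratio was 0.402 ± 0.0240 in Control and 0.460 ± 0.0417 in HFpEF (SD, n = 5). Of the HFpEF libraries 4 lay above the highest Control ratio of 0.436, and HFpEF 1 lay within the Control range at 0.398.

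Of the distal enzymes, Ivd (ENSMUSG00000027332.11; protein-coding, chromosome 2, 118861954 to 118882909, plus strand) encodes isovaleryl-CoA dehydrogenase, the leucine-route enzyme that follows BCKDH. It stood at 149.35, 153.95, 142.2, 156.9 and 147.7 CPM in Control 1 to 5 and at 130.2, 159.3, 184.3, 178.7 and 162.0 CPM in HFpEF 1 to 5. As with Bckdha, 4 HFpEF libraries lay above every Control library, but HFpEF 1 lay below all of them. The coefficient of variation was 3.81% in Control and 13.0% in HFpEF. The means were 150.03 ± 5.71 and 162.9 ± 21.2 CPM (SD, n = 5), and the log2 fold change was 0.12 ± 0.08 (SE; 95% interval -0.04 to 0.28; adjusted p = 0.412). Without HFpEF 1 the log2 fold change was 0.19, which still missed the threshold (edgeR adjusted p = 0.0523).

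Mccc1 (ENSMUSG00000027709.9; protein-coding, chromosome 3, 35959312 to 36000678, minus strand) encodes the biotin-bearing alpha subunit of methylcrotonyl-CoA carboxylase, the next leucine-route enzyme. It stood at 79.6, 79.0, 79.1, 75.4 and 70.6 CPM in Control 1 to 5 and at 72.05, 68.1, 74.4, 74.0 and 71.7 CPM in HFpEF 1 to 5. All HFpEF libraries lay below Control 1 to 4, and Control 5 lay among them. Its spread was the smallest in HFpEF, with a coefficient of variation of 3.49%. The log2 fold change was -0.09 ± 0.05 (SE; 95% interval -0.19 to 0.01; adjusted p = 0.304). Its partner Mccc2, the beta subunit of the carboxylase, was not called.

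Hibadh (ENSMUSG00000029776.11; protein-coding, chromosome 6, 52546228 to 52640389, minus strand) encodes 3-hydroxyisobutyrate dehydrogenase of the valine route, whose substrate can leave the cell and is known as a signal for fatty acid transport in muscle. Its Control libraries spanned 113.3 to 137.9 CPM and its HFpEF libraries 115.1 to 147.7 CPM, with means of 130.1 ± 9.90 and 133.5 ± 12.3 CPM (SD, n = 5). HFpEF 3 and HFpEF 4 exceeded every Control library and the other 3 lay inside their range. The log2 fold change was 0.04 ± 0.07 (SE; 95% interval -0.11 to 0.18; adjusted p = 0.815).

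Levels were compared between genes after division by the merged exon length of each gene, in CPM per kb. This scale assumes that all annotated exons are used and so understates genes with long alternative exons. In Control, Bckdha was highest at 63.4 ± 3.80 CPM per kb (SD, n = 5), followed by Ivd at 27.3 ± 1.04. Ppm1k (14.7 ± 1.39), Hibadh (12.8 ± 0.973) and Bckdhb (12.6 ± 0.949) came next, and neighbours among these 3 differed by less than the sum of their SDs. Dbt (10.7 ± 0.827), Bckdk (9.57 ± 0.506) and Bcat2 (8.94 ± 0.650) formed a further step within which the same held. The SDs are the spread among libraries and do not cover the choice of exon length, on which these steps also depend. Mccc1 followed at 7.01 ± 0.346 CPM per kb and Bcat1 was lowest at 0.109 ± 0.0308 CPM per kb. Among the BCKDH genes Bckdha thus stood well above Bckdhb and Dbt on this scale in Control, and in HFpEF the values were 73.7 ± 6.47, 10.7 ± 1.07 and 10.6 ± 1.38 CPM per kb.

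The rest of the pathway was described with a list of 25 other genes, all of which passed the filter. By edgeR 1 of them was called higher, 0 were called lower and 24 were not called, against 3.24% of all genes called higher and 2.09% called lower. Its median log2 fold change was -0.01, as over all genes. The called gene was Acat1, whose thiolase completes isoleucine breakdown and also acts in ketone body metabolism. Acat1 stood at 189.5, 190.5, 167.03, 198.6 and 177.7 CPM in Control 1 to 5 and at 224.4, 248.7, 270.9, 256.3 and 236.9 CPM in HFpEF 1 to 5. All HFpEF libraries lay above all Control libraries, and the log2 fold change was 0.42 ± 0.06 (SE; adjusted p = 0.000906). Leaving out any 1 library kept this call, with adjusted p up to 0.00387.

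The enzymes between BCKDH and the pathway's ends showed no further call. In the valine route the smallest p was that of Acad8, isobutyryl-CoA dehydrogenase (log2 fold change 0.04 ± 0.06, SE; adjusted p = 0.764), and Echs1, the hydratase of the valine and isoleucine routes, was at -0.02 ± 0.06 (adjusted p = 0.855). In the propionyl-CoA route, which feeds valine and isoleucine carbon into the citric acid cycle, it was Pccb, the beta subunit of propionyl-CoA carboxylase. Pccb averaged 37.4 ± 2.23 CPM in Control against 42.0 ± 3.71 CPM in HFpEF (SD, n = 5), with a log2 fold change of 0.17 ± 0.06 (SE; adjusted p = 0.133). Without HFpEF 1 it was 0.21 and called (edgeR adjusted p = 0.0356). Of the HFpEF libraries of Pccb 4 lay above every Control library and HFpEF 1 did not.

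The median SE was larger for the transport (0.12) and regulation (0.11) genes than for the members (0.07), though not for every gene. Of 6 transporter genes none was called, and Slc43a1, which carries large neutral amino acids across the plasma membrane, had the smallest p. Slc43a1 averaged 1.85 ± 0.502 CPM in Control against 2.25 ± 0.340 CPM in HFpEF (SD, n = 5), and its log2 fold change was 0.30 ± 0.18 (SE; adjusted p = 0.360). Klf15, a transcription factor known to promote expression of branched-chain amino acid enzymes in heart, stood at 15.5, 16.8, 18.4, 18.5 and 11.2 CPM in Control 1 to 5. In HFpEF 1 to 5 it stood at 15.8, 16.9, 22.4, 24.1 and 23.7 CPM. HFpEF 3, 4 and 5 exceeded every Control library, and the other HFpEF libraries lay inside the Control range. The log2 fold change was 0.36 ± 0.16 (SE; 95% interval -0.01 to 0.72; adjusted p = 0.253), and no omission of 1 library brought a call.

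**Figure D4:**
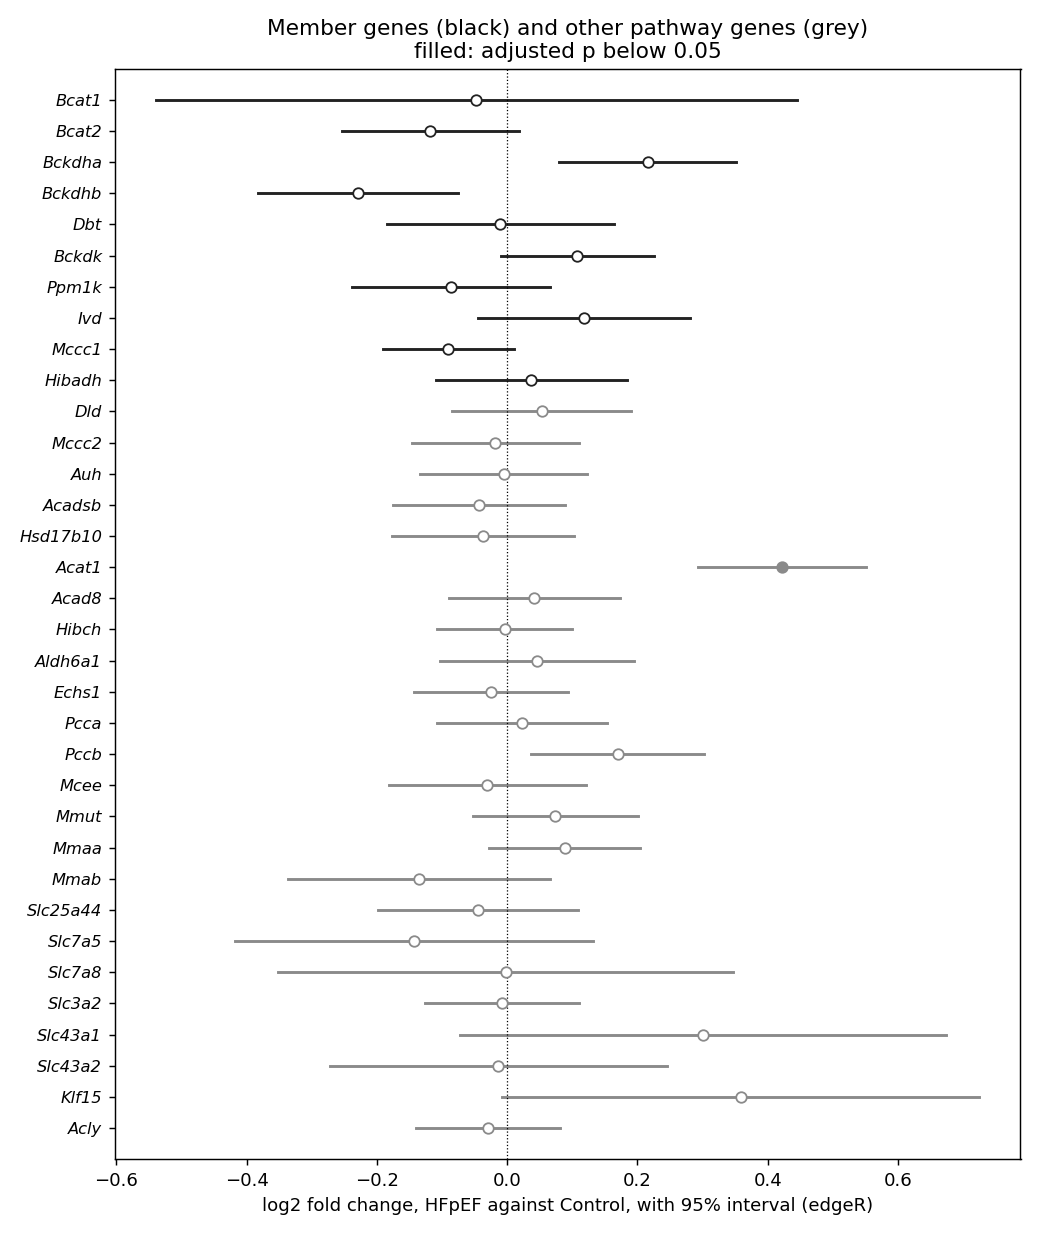
Log2 fold change (HFpEF against Control) with its 95% interval from edgeR for the 10 member genes (black) and other genes of the pathway (grey). Members come first from the top, then the other genes by route, with transport and regulation genes last. Filled points have an adjusted p below 0.05. Acat1 at 0.42 is the filled point, and of the members the intervals of Bckdha (0.08 to 0.35) and Bckdhb (-0.38 to -0.08) leave out 0 before adjustment.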

How the data were processed

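RNA from left ventricle was ribosomal-RNA-depleted and made into total RNA libraries, per the labels' protocols. The submitters' processing notes list build mm10, RSEM 1.2.15 and Bowtie2 2.1.0, with no role for any of them. The values the authors deposited were taken to be estimated counts (expected counts in RSEM's terms) per gene, not normalized; all were whole numbers, so rounding changed none. The 92 spike-in rows held 0 counts and were left out.

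Genes were filtered with filterByExpr (minimum count 10) and tested with edgeR 4.0.16 in R 4.3.3 (TMM scaling, robust quasi-likelihood fit, group as sole term, Benjamini-Hochberg adjustment over 18491 genes). The code was tested on simulated data. CPM use TMM-scaled totals. Coordinates, exon lengths and overlaps come from GENCODE M21 (mm10) by identifier. Libraries of a group all differed by more than sampling noise. Alternatives were RLE and upper quartile scaling, leaving out mitochondrial transcripts, DESeq2 1.42.0, limma 3.58.1 voom, other filters, a replicate block and leaving out libraries. Named genes were the members, plus called pathway genes and the one with the smallest p in each subgroup; 1 of these is not reported here, though counts include it. The members and lists were chosen with earlier results of these data known.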

Additional observations from a re-analysis of the deposited data

Results flagged for a closer look

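In Bckdha, HFpEF 1 stood apart from the other HFpEF libraries at 118.9 CPM, with the nearest of them at 141.1 CPM. The gap took up 0.738 of the range of the group, above Dixon's 95% critical value of 0.71 for 5 samples. It was the one such library among 36 groups examined (18 named genes in each of 2 groups), and chance flags about 1 group in 20. HFpEF 1 also stood apart from the other HFpEF libraries in the chi-square per gene given above.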

How the results depend on the processing

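Bckdha kept its direction in all 19 alternatives (0.19 to 0.27 on the log2 scale, adjusted p 0.00729 to 0.153) and Bckdhb did as well (-0.28 to -0.18, adjusted p 0.0418 to 0.187). One member was called (count 1 in place of 0) by DESeq2 and with no filter on low counts, Bckdha in both (adjusted p 0.0221 and 0.0317). Members called ran from 0 to 1 and other pathway genes called from 1 to 2 when 1 library was left out. Genes called higher ran from 352 (without HFpEF 3) to 684 and genes called lower from 202 (without HFpEF 3) to 417 (both highest without HFpEF 1); without Control 1 they were 393 and 237, and genes called lower were 238, 228 and 248 without Control 2, HFpEF 4 or HFpEF 5. DESeq2 called 921 higher. Near-zero fold changes turned sign when 1 library was left out: Bcat1 ran from -0.216 to 0.0910, Dbt from -0.0813 to 0.0461, Hibadh from -0.00822 to 0.0868 and Echs1 from -0.0543 to 0.0150. Dbt was also 0.0129 without Control 4 and Control 5 together, an alternative chosen after seeing the data. The cause was not tested. Bcat1 did not pass the stricter filter (minimum count 50) and has no value there. Libraries with the same number did not deviate together (correlations of -0.11 to 0.06 over genes, none above 0.1). The labels state no pairing, and such correlations cannot exclude one. With a replicate block 444 genes were called higher, 300 lower, 0 members and 1 other pathway gene.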
